A study of Mus musculus with 39 samples.

Results

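The 8 genes described here are the enzymes and carriers of the malate-aspartate shuttle, Got1, Got2, Mdh1, Mdh2, Slc25a11, Slc25a12 and Slc25a13, and Asns, the enzyme that makes asparagine from aspartate. They are 8 of the 39179 genes of the count table, and all 8 were among the 15070 genes with enough counts to be tested. Got1 was taken as selected on measured values of these libraries, since it was 1 of the 4 genes that differed between tumours given anti-PD-1 plus EPAT and vehicle tumours on day 5. Which values chose it is not stated, and that comparison is treated below as the contrast that chose the gene. The other 7 were listed for their place in the same pathway, with earlier results of these data known. The level of Got1 in that comparison is therefore given as a description, without a test.

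The RNA came from 39 Braf-mutated melanoma tumours that grew from injected cells in C57BL/6 mice. From day 7 after injection the mice received vehicle (DMSO and PEG400 in water), anti-PD-1, an antibody against an inhibitory receptor of T cells (200 µg per dose), EPAT, which blocks the prostaglandin E2 receptors EP2 and EP4 (30 mpk in the labels' unit), or both agents. Tumours were taken after 2 or 5 days of treatment, with 5 libraries in each of the 8 groups except anti-PD-1 on day 2, which had 4. The Braf mutation, the host strain and the injected cells are common to every group, vehicle included. The labels name neither the cell line nor its clones, nor do they say whether each library stands for its own mouse, so p-values measure only the spread between these samples.

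NADH made by glycolysis cannot cross the inner mitochondrial membrane, and the shuttle carries its electrons across instead. In the cytosol Got1 turns aspartate into oxaloacetate, which Mdh1 reduces to malate while oxidising NADH; malate enters the mitochondrion through the Slc25a11 carrier. Inside, Mdh2 and Got2 run the reverse steps, and the resulting aspartate leaves through Slc25a12 or Slc25a13 in exchange for glutamate. In proliferating cells the same cytosolic aspartate also feeds nucleotide synthesis and asparagine synthesis by Asns, a classical target of the amino acid response that the transcription factor ATF4 drives. EP2 and EP4 signal by raising cyclic AMP, which acts on transcription through CREB.

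Promoter windows were read for all 8 members from RefSeq (build GRCm38.p6), from 250 bases before to 50 bases after the transcript start, and searched on both strands for 4 motifs. The composite CEBP-ATF element of amino acid response genes, searched as TGATGNAAN, was found in the windows of Asns and Got1, 2 of the 8, against 4.0% of 32851 windows of the same length. Asns is itself a classical gene of that response, so its match is tied to the choice of the motif, and the count is no test of enrichment. The full cyclic AMP response element TGACGTCA was found in 1 of the 8, that of Mdh2, against 1.8% of windows. These 3 windows are shown because they hold the only matches to either element; the 250 bases before the start are printed 5′ to 3′ on the strand of the gene, with the match in capitals. The Asns match reads forward and begins 23 bases before the start, and the Got1 match lies on the reverse strand, 103 bases before it. The Mdh2 match begins 127 bases before the start.
Got1, chr19:43524606-43524855, minus strand: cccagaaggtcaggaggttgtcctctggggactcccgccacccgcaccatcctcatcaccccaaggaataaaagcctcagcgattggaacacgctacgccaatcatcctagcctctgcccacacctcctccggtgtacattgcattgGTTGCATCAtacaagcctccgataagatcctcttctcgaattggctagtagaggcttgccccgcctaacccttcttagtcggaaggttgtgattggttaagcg
Asns, chr6:7693210-7693459, minus strand: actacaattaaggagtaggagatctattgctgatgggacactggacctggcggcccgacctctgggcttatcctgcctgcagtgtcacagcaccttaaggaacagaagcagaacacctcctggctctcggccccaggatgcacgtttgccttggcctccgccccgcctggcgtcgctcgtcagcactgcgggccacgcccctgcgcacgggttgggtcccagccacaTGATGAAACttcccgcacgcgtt
Mdh2, chr5:135778399-135778648, plus strand: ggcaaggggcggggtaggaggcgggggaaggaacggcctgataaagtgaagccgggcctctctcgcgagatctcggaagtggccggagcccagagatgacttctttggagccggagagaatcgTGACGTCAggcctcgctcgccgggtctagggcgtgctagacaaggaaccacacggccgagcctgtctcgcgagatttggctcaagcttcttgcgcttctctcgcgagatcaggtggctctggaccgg

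The 5-letter core TGACG, which the full element contains, was present in 3 of the 8 windows (Mdh2, Slc25a13 and Asns) against 20.8% of all windows. The hexamer TGTTCT of the glucocorticoid response element was present in 1, that of Asns, against 19%. A match describes letters and shows no binding.

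Libraries held 8385741 to 15558113 counts, with a median of 12193825. Gm42418, a gene that overlaps ribosomal RNA sequence, took 1.9% to 12.9% of a library's counts, with 25 libraries under 5% and 14 over it, and each group held 1 to 4 of the latter. Transcripts of lung cells were present in 23 libraries and nearly absent from the other 16, and the summed level of 15 skeletal muscle genes ran from 6.16 to 17500 CPM. Of 10 markers of melanocytes, the lineage that the tumour label names, Mitf, Sox10, Kit, Ednrb and S100b passed the filter on low counts. Pmel, Mlana, Tyr, Tyrp1 and Dct, the pigment genes, did not, and Tyrp1 had no count in any library.

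Levels are given in CPM, tag counts relative to the library total after TMM scaling. The libraries hold tags from the 3′ ends of transcripts, so a level carries no length term and genes are compared per tag. Mdh2 was the most abundant member, with a mean of 263 CPM ± 42.6 (SD, n = 39). Mdh1 (81.4 ± 15.3), Got2 (79.0 ± 14.4), Got1 (77.8 ± 15.2) and Slc25a11 (75.9 ± 10.2) lay close together and did not differ beyond their spread. Slc25a12 (36.2 ± 6.11) and Asns (33.2 ± 11.9) formed the next level. Slc25a13, the second aspartate-glutamate carrier, was lowest at 6.00 ± 2.08 CPM, with 26 to 172 counts per library; Got1 had 298 to 2105 counts.

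Got1, the cytosolic aspartate aminotransferase (chromosome 19, 43499752 to 43524605 on the minus strand of GRCm38, a protein-coding gene that overlaps no other annotated gene), was lower in the tumours given both agents for 5 days than in the other groups. In those 5 libraries it stood at 32, 73.8, 57.1, 50.2 and 47.1 CPM in replicates 1 to 5. In vehicle tumours of day 5 it stood at 70.1, 90.3, 73.4, 89.5 and 124 CPM. The ranges overlap through replicate 2 of the combination, which lies above the 2 lowest vehicle libraries, and the other 4 combination libraries lie below all vehicle libraries. The difference was -0.78 ± 0.15 on the log2 scale (SE), a level 0.582 times that of vehicle. It is the contrast that chose the gene, and of all 15070 genes 4, or 0.0265%, were called in it (adjusted p under 0.05), all of them lower: Fkbp5, Rdh10, Tmem198b and Got1.

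Got1 was also measured on day 5 with either agent alone. Under anti-PD-1 the 5 libraries stood at 89.6, 89.8, 77.8, 79.0 and 82.2 CPM, and the highest library of the combination stood at 73.8 CPM. Under EPAT they stood at 73.0, 93.7, 82.5, 79.4 and 64.3 CPM, of which 2 lie within the range of the combination. Against vehicle, Got1 differed by -0.10 ± 0.15 under anti-PD-1 (adjusted p = 0.853, interval -0.40 to 0.21) and by -0.19 ± 0.15 under EPAT (adjusted p = 1.0, interval -0.49 to 0.12), and neither difference passed. These comparisons use the same vehicle libraries as the one that chose the gene. The log2 difference was -0.68 ± 0.15 between the combination and anti-PD-1 and -0.59 ± 0.15 between the combination and EPAT, from the same combination libraries and so without a test.

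On day 2 the 4 groups could not be told apart by Got1. Vehicle libraries stood at 68.3, 90.9, 76.9, 82.0 and 73.2 CPM and those of the combination at 85.6, 81.1, 88.1, 87.4 and 69.6 CPM. The difference was 0.07 ± 0.15 (adjusted p = 0.911, interval -0.23 to 0.38). Anti-PD-1 libraries ranged from 71.7 to 93.0 CPM and EPAT libraries from 63.7 to 81.1 CPM, with differences from vehicle of 0.08 ± 0.16 (adjusted p = 0.94) and -0.03 ± 0.15 (adjusted p = 0.994). In order, the group means of Got1 were 89.5 ± 21.4 CPM for vehicle on day 5, 83.7 ± 5.7 for anti-PD-1 on day 5, 82.5 ± 8.67 for anti-PD-1 on day 2 and 82.4 ± 7.62 for the combination on day 2. They were followed by 78.6 ± 11 for EPAT on day 5, 78.3 ± 8.68 for vehicle on day 2, 76.5 ± 7.4 for EPAT on day 2 and 52.1 ± 15.2 for the combination on day 5 (SD). Neighbours among the first 7 differed by less than the larger of their SDs, and the step to the last exceeded the SDs of both groups. The last group holds the libraries whose low values chose the gene, so this step is a description and no test. The combination effect on day 5 minus that on day 2 was -0.86 ± 0.21.

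**Figure D1:**
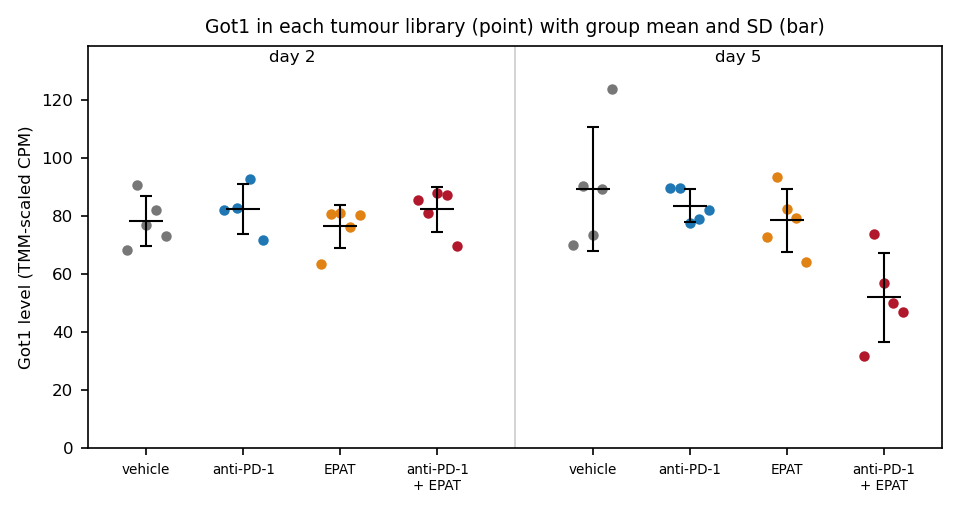
Level of Got1 in TMM-scaled CPM (vertical axis) in each of the 39 libraries (points), by treatment, with day 2 on the left and day 5 on the right; bars give the group mean and SD. The combination on day 5, at 32 to 73.8 CPM, lies lowest, and the other 7 groups overlap each other.

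The coefficient of variation of Got1 was 6.81% to 14% in 6 of the groups, 23.9% in vehicle on day 5 and 29.2% in the combination on day 5. Its median over the 8 groups was 10.8%, against 18.2% for Got2, 18% for Mdh1 and 11.8% for Mdh2. Within the combination on day 5, replicate 1 was lowest in Got1 (32 CPM) and Mdh1 (50.9 CPM) and highest in Mdh2 (407 CPM) of all 39 libraries. Without that library the Got1 difference was -0.64, and without replicate 5 of vehicle, the 124 CPM library, it was -0.63. The call that chose the gene depended on most libraries: it is lost when any 1 of the 10 is left out, except replicate 3 of vehicle and replicate 2 of the combination, with log2 differences between -0.94 and -0.63. This describes how the gene was chosen and is no test of the difference.

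Library and tissue content also varied within and between the groups. Among libraries with under 5% Gm42418, Got1 differed by -0.89 on the log2 scale (4 combination against 3 vehicle libraries), and among those over 5% by -0.66 (1 against 2). Among libraries with lung transcripts it differed by -0.59 (2 against 3) and among those without by -0.88 (3 against 2). With the muscle score as a covariate the difference was -0.78. All of these values include the libraries that chose the gene, so their direction is a description and no test. Of the marker lists, all 8 T cell genes were higher in the combination on day 5 (summed level 136 to 417 CPM against 82.2 to 185 in vehicle), as were 7 of 8 macrophage genes (1900 to 3900 against 1210 to 2510 CPM) and 7 of 7 fibroblast genes (10200 to 16900 against 4850 to 19200 CPM). All 8 proliferation genes were lower (1300 to 2120 against 1450 to 2570 CPM). Adipocyte genes were lower in 8 of 9 cases, with a median of -2.21 on the log2 scale (48.6 to 128 against 41.4 to 283 CPM). Keratinocyte genes were higher in 5 of 6, with a median of 3.92 (9.73 to 125 against 5.61 to 14.6 CPM). The mean log2 CPM of these 6 genes had a median of -0.73 in the combination libraries and -0.51 in the vehicle libraries. The keratinocyte rise therefore rests on the upper end of the combination range and was not seen in its median library. Of the other lists, 10 of 15 skeletal muscle genes and 4 of 5 lung genes were lower, and 5 of 6 endothelial and 4 of 5 measured melanocyte genes were higher. None of these marker genes passed the test, and their part in the Got1 difference was not tested. In bulk tumour RNA, fewer cells of a type and less RNA per cell cannot be told apart.

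The mitochondrial partner Got2 (chromosome 8, 95864134 to 95888547, minus strand) makes aspartate from oxaloacetate. Its levels on day 5 were 99.8, 57.9, 94.2, 71.7 and 86.7 CPM in the combination and 58.8, 86.0, 84.8, 67.1 and 91.0 CPM in vehicle, in the order of the replicates. The groups overlap fully, with a difference of 0.08 ± 0.18 (adjusted p = 0.85, interval -0.29 to 0.45). Over all 21 comparisons no log2 difference of Got2 exceeded 0.131 in size. The ratio of Got1 to Got2 tags, which compares unequal transcripts and is read only between groups, had a median of 0.606 in the combination on day 5 (0.321 to 1.28) against 1.19 in vehicle (0.866 to 1.36). Since Got1 enters it, the ratio is no separate evidence.

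**Figure D2:**
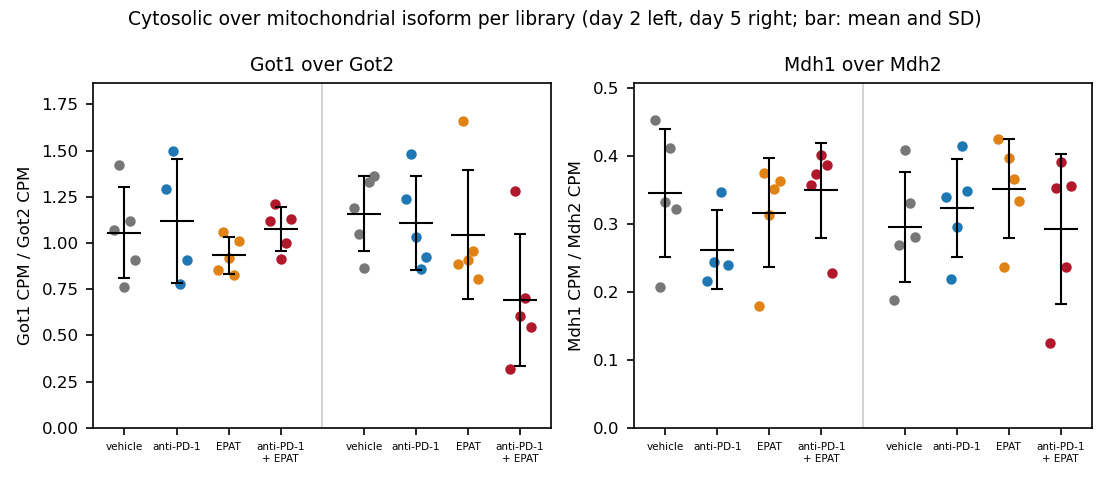
Ratio of cytosolic to mitochondrial isoform tags per library (points, with group mean and SD), Got1 over Got2 on the left and Mdh1 over Mdh2 on the right. Got1 over Got2 is lowest in replicate 1 of the combination on day 5 (0.321), and Mdh1 over Mdh2 has its lowest value, 0.125, in the same library.

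Mdh1, the cytosolic malate dehydrogenase, stood at 50.9, 68.0, 91.4, 62.2 and 79.2 CPM in the combination on day 5 and at 58.3, 87.7, 88.3, 86.4 and 91.3 CPM in vehicle. Replicate 1 of each group is its lowest, and the ranges overlap. The difference was -0.23 ± 0.18 (adjusted p = 0.527, interval -0.60 to 0.14) and did not pass. Mdh1 (chromosome 11, 21556787 to 21572367, minus strand) overlaps Wdpcp on the other strand, a gene with a median of 49 counts that does not cover its 3′ end, and the strand setting of the counting is not given in the sources used here. Mdh2 (chromosome 5, 135778480 to 135790398, plus strand), which regenerates oxaloacetate in the mitochondrion, stood at 407, 192, 234, 262 and 223 CPM in the combination on day 5 and at 307, 326, 216, 260 and 325 CPM in vehicle. It holds both the highest and the lowest library of the 39 in the combination group, and its difference of -0.12 ± 0.15 did not pass (adjusted p = 0.697, interval -0.42 to 0.18). Under EPAT alone, which blocks receptors that raise cyclic AMP, Mdh2 differed from vehicle on day 5 by -0.19 ± 0.15 (adjusted p = 1.0). The value was similar under anti-PD-1 alone on day 5, at -0.21 ± 0.15 (adjusted p = 0.688). Under EPAT on day 2 Mdh2 differed by 0.085 ± 0.15 (adjusted p = 0.983), and none of these passed.

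Of the carriers, Slc25a11 exchanges malate for oxoglutarate and was the least variable between groups after Got2, with no log2 difference over 0.157 in size in the 21 comparisons. On day 5 it stood at 66.8 to 97.6 CPM in the combination (median 76.2) and at 61.9 to 91.3 CPM in vehicle (median 80.5), a difference of -0.01 ± 0.13 (adjusted p = 0.983). Slc25a11 (chromosome 11, 70644196 to 70647479, minus strand) overlaps Rnf167 on the other strand, which had a median of 249 counts and does not cover its 3′ end either.

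Slc25a12, the aspartate-glutamate carrier of muscle and brain, was lowest in vehicle tumours of day 2, at 31.9, 29.3, 35.2, 30.8 and 33.9 CPM. EPAT tumours of that day stood at 35.3, 45.9, 37.5, 38.9 and 40.9 CPM. Their lowest library and the highest of vehicle, 35.3 and 35.2 CPM, nearly meet. The difference of 0.30 ± 0.16 did not pass (adjusted p = 0.809, interval -0.02 to 0.62), and 0% of all genes were called in this comparison. On day 5 the same contrast gave 0.08 ± 0.16 (adjusted p = 1.0).

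Slc25a13, the carrier typical of liver, had the largest differences of any member on day 2. Vehicle libraries stood at 4.82, 3.25, 3.38, 3.1 and 5.5 CPM, EPAT libraries at 4.42, 11.2, 4.41, 5.92 and 6.35 CPM, and those of the combination at 5.74, 4.22, 7.0, 5.14 and 8.7 CPM. The EPAT range rests in part on replicate 2, and vehicle overlaps both other groups. The log2 differences from vehicle were 0.69 ± 0.29 under EPAT (interval 0.09 to 1.28) and 0.62 ± 0.29 under the combination (interval 0.02 to 1.21), with adjusted p = 0.756 and 0.468, so neither passed. Vehicle tumours of day 5 stood higher than those of day 2 by 0.63 ± 0.29 (adjusted p = 0.903), which did not pass either. On day 5 the EPAT difference was -0.13 ± 0.29 (adjusted p = 1.0).

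**Figure D3:**
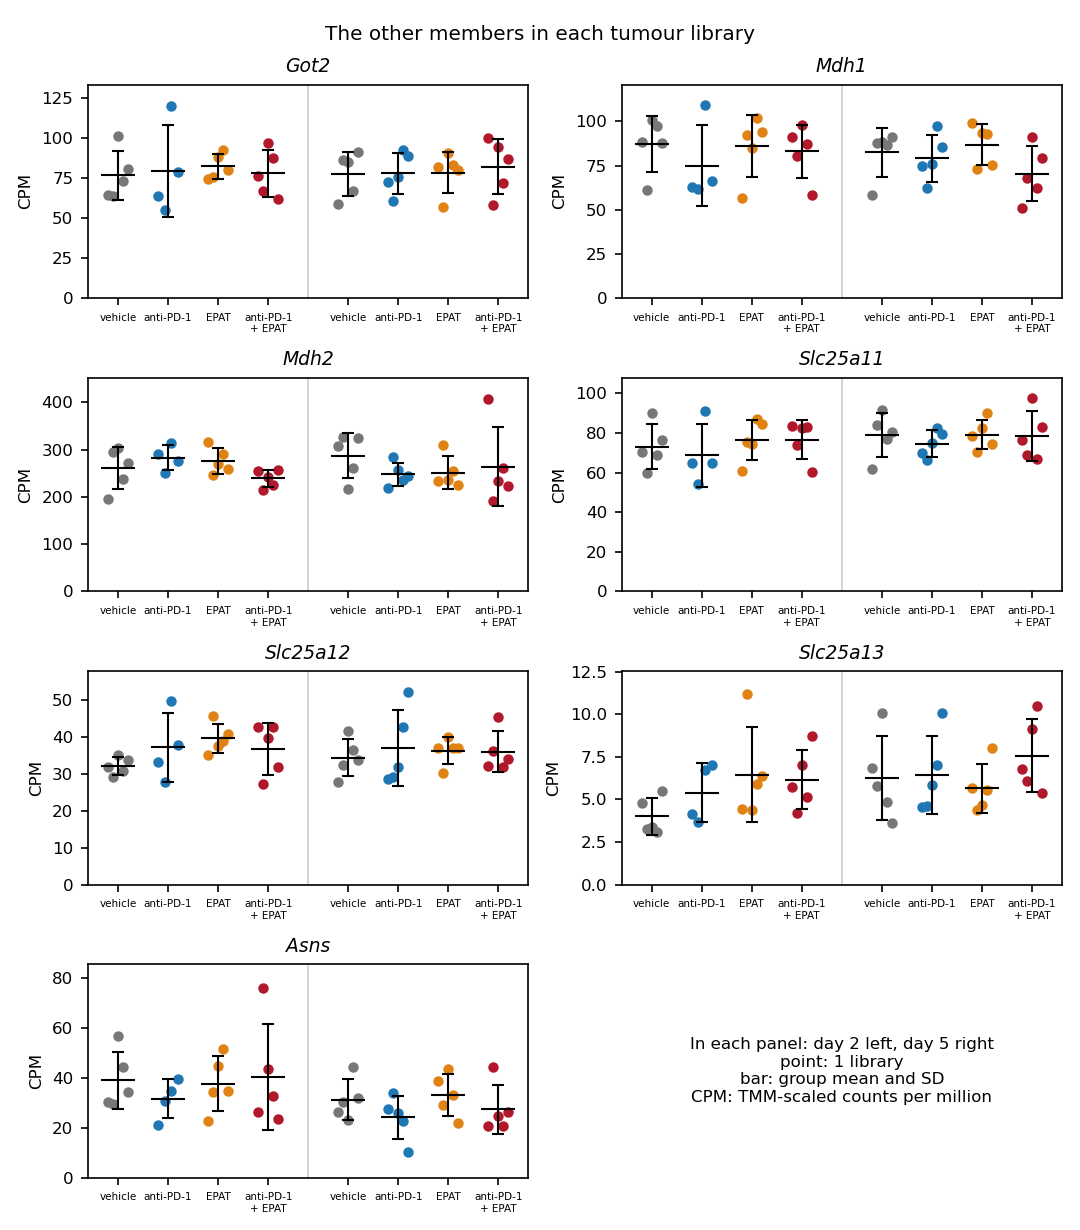
Levels of the other 7 members in TMM-scaled CPM (vertical axes, each from 0) in each library (points), by treatment, with day 2 left and day 5 right in each panel; bars give group mean and SD. Groups overlap in nearly every panel, and vehicle on day 2 is lowest for Slc25a12 (mean 32.2 CPM) and Slc25a13 (4.01 CPM).

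Slc25a13 rose with the skeletal muscle content of the tumour piece. Over the 39 libraries its log2 CPM followed the muscle score, the mean log2 CPM of 15 muscle genes, with Pearson's r = 0.446 (permutation p = 0.00434) and Spearman's rho = 0.482 (permutation p = 0.00207). Adjusted over the 8 members these were 0.0347 and 0.0166. Without the 2 libraries farthest from the median score, r was 0.451 (adjusted permutation p = 0.0394), and after the group means were subtracted r was 0.321 and no longer passed (adjusted permutation p = 0.26). Within libraries under and over 5% Gm42418, r was 0.481 (n = 25) and 0.41 (n = 14), and within libraries with and without lung transcripts 0.365 (n = 23) and 0.593 (n = 16). None of the other 7 passed: Asns had r = -0.341 (adjusted permutation p = 0.136), Slc25a12 r = 0.232 (0.41) and Got1 r = -0.125 (0.72). On day 2 the summed muscle level was lowest in vehicle tumours, with a median of 15.6 CPM (10.5 to 559) against 1220 CPM (10.0 to 3950) under EPAT, 559 CPM (19.1 to 850) under the combination and 2070 CPM (6.16 to 3750) under anti-PD-1. Its part in the Slc25a13 differences of day 2 was not tested.

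Asns (chromosome 6, 7675169 to 7693254, minus strand) was lower on day 5 than on day 2 when averaged over the treatments, at a mean of 29.1 against 37.6 CPM, a log2 difference of -0.36 ± 0.15 (interval -0.66 to -0.06). This did not pass (adjusted p = 0.198), although 332 genes, or 2.2% of those tested, were called between the days. Its spread was wide, from 10.4 CPM in replicate 5 of anti-PD-1 on day 5 to 76.0 CPM in replicate 2 of the combination on day 2. In the combination on day 5 it stood at 21, 44.4, 24.7, 20.8 and 26.6 CPM and in vehicle at 26.4, 30.5, 23.3, 44.6 and 32 CPM. These overlap, with a difference of -0.19 ± 0.29 (adjusted p = 0.773, interval -0.79 to 0.41).

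In all, the 8 members were tested in 21 comparisons: the 3 treatments against vehicle, the combination against each agent, the averaged effect of each agent and their interaction on either day, the days in vehicle and over all treatments, and each treatment effect between the days. The 7 members other than Got1 were called in none of their 147 tests by edgeR's quasi-likelihood test, by DESeq2, by limma-trend on the deposited log2 values or by limma-voom. At an unadjusted p under 0.05 they passed 5 of the 147 by edgeR, 4 for Slc25a13 and 1 for Asns. Among all genes 1.7% to 18.9% had such a p over the 21 comparisons, and 5 of 147 lies within that range. In the 5 comparisons concerned the share of all genes was 3.46% to 17%. The 4 of Slc25a13 all involve the vehicle libraries of day 2 and are not independent. Of all genes, 0% were called in 17 of the comparisons, 0.0133% in the averaged EPAT effect on day 5 and 0.0199% between the combination and anti-PD-1 on day 5, so that a count of 0 among 7 genes is near the background. Got1 was called in no comparison but its own by edgeR, and its values there were -0.44 ± 0.11 for the averaged EPAT effect and -0.34 ± 0.11 for the averaged anti-PD-1 effect on day 5, each of which includes the combination libraries. In the combination against vehicle on day 5, 3 members were higher and 5 lower, with a median of -0.07 against -0.01 over all genes.

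**Figure D4:**
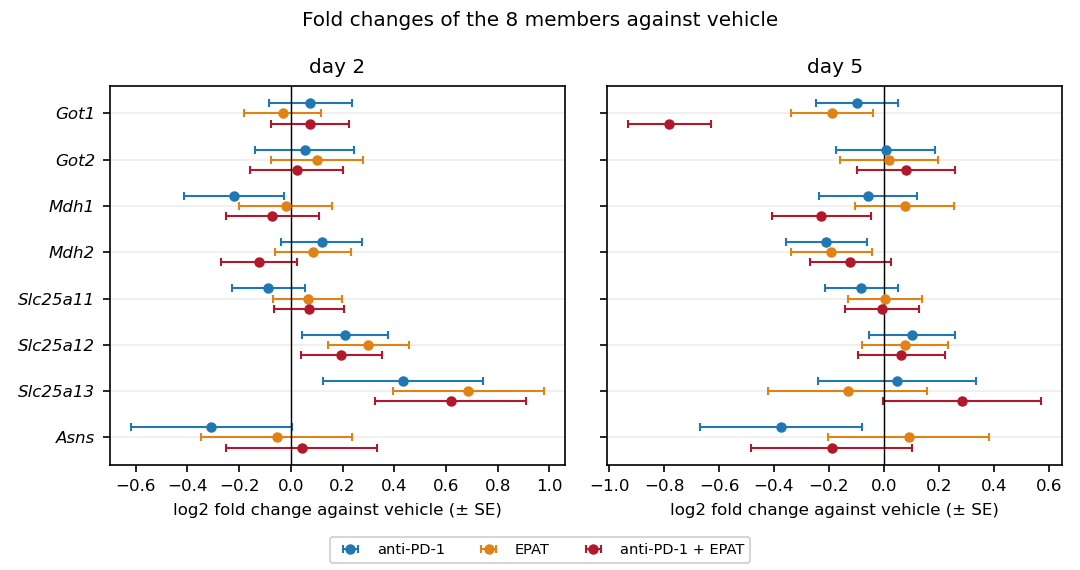
Log2 fold change against vehicle (horizontal axis, ± SE) of the 8 members on day 2 (left) and day 5 (right), with the treatments in separate colours. Got1 under the combination on day 5 (-0.78) stands apart from 0, and the values of Got2 and Slc25a11 lie near 0 on either day.

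Mdh1, Got2, Slc25a11, Slc25a12 and Asns had lower median levels where the share of Gm42418 was high. The median levels in the 25 libraries under 5% and the 14 over it were 91.3 and 62.4 CPM for Mdh1, 84.8 and 67.8 CPM for Got2, 82.4 and 65.4 CPM for Slc25a11, 37.2 and 31.9 CPM for Slc25a12, and 34.6 and 26.9 CPM for Asns. Mdh2 went the other way, at 243 and 280 CPM, while Got1 stood at 79.4 and 82.3 CPM and Slc25a13 at 5.67 and 5.22 CPM. These 2 sets of libraries were formed from the data and are not groups of the study, so the values are a description without a test. The libraries over 5% numbered 4 of 5 in anti-PD-1 on day 5 and 3 of 4 on day 2, against 1 or 2 in each other group.

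**Figure D5:**
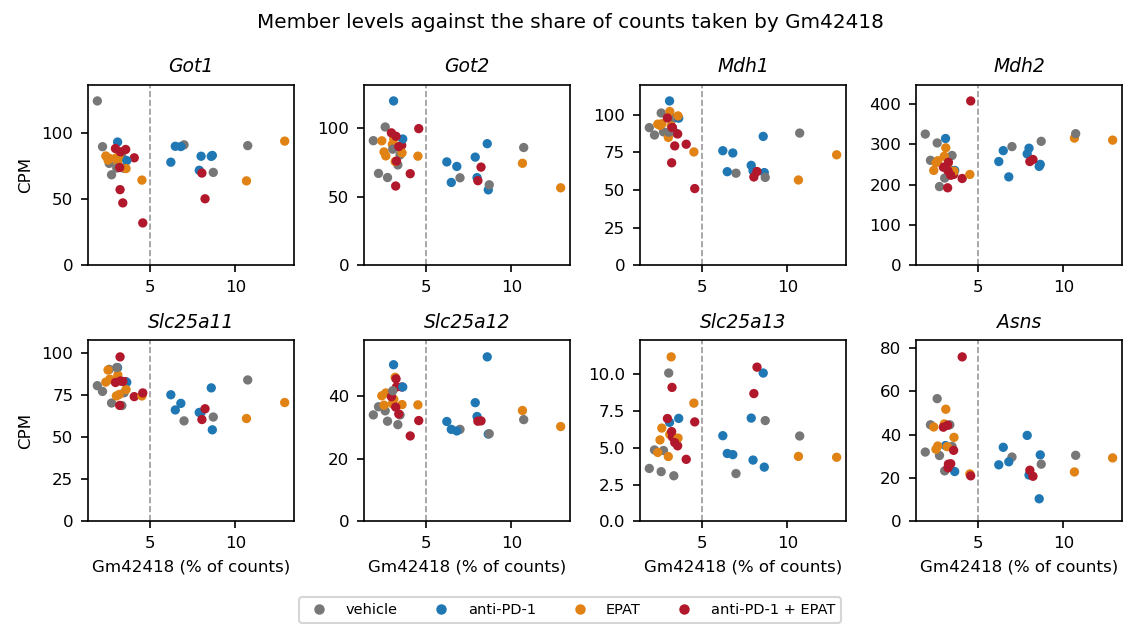
Level of each member in TMM-scaled CPM (vertical axes, from 0) against the share of a library's counts taken by Gm42418 (horizontal axis, percent), with libraries coloured by treatment and a dashed line at 5%. Mdh1 and Slc25a11 lie lower to the right of the line, and the low Got1 points of the combination lie on both sides of it.

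Some members varied together. Over the 39 libraries Got2 and Slc25a11 had r = 0.79 on log2 CPM (rho 0.79), and within libraries under and over 5% Gm42418 0.69 and 0.71. Mdh1 and Slc25a11 had r = 0.78, and 0.43 and 0.90 within those libraries. Both pairs kept their likeness after the group means were subtracted, at 0.82 and 0.87. Got1 and Mdh1 had r = 0.41 (rho 0.20), and 0.70 and 0.46 within the libraries under and over 5% Gm42418. Replicate 1 of the combination on day 5, the lowest of all 39 libraries in both genes, is among those under 5%. It is also 1 of the libraries that chose Got1, and the r without it is not given here. With Got1, r was 0.31 for Asns, -0.12 for Got2 and 0.03 for Slc25a11. Asns had r = 0.37 with Mdh1, 0.02 with Got2, 0.13 with Slc25a11 and -0.19 with Slc25a12. The carriers Slc25a12 and Slc25a13 had r = 0.54, and Slc25a13 and Asns r = -0.47. All of these share libraries, depth and scaling, and are given as descriptions.

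Of 11598 genes with a mean of at least 1 log2 CPM, those most like Got1 over the 39 libraries were Anxa7 (r = 0.861), an annexin, Polr1d (0.832), a subunit of RNA polymerases I and III, Eif4h (0.823), a translation initiation factor, Nit2 (0.82), an omega-amidase, and Thap11 (0.817). Those least like it were Chd8 (-0.765), a chromatin remodeller, and Msn (-0.724), which links actin to the membrane. Much of this rests on replicate 1 of the combination on day 5: without it r was 0.754 for Anxa7 and 0.677 for Eif4h, and 2 of the 5 genes remained among the 5 highest. By Spearman's rho none of the 5 remained. The genes called beside it in the contrast that chose Got1 had r = 0.709 for Fkbp5, 0.627 for Tmem198b and 0.512 for Rdh10, which fell to 0.442, 0.398 and 0.053 after the group means were subtracted. Asns was most like Steap1 (r = 0.797), Zfp131 (0.788), Tra2b (0.785), Adat2 (0.784) and Ift74 (0.78).

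Other routes of NADH and malate, such as the glycerol phosphate shuttle, lactate dehydrogenase and citrate export, were followed in a list of 19 genes, of which 17 were measured. None was called in any of the 21 comparisons by edgeR, DESeq2, limma-trend or limma-voom. In the combination against vehicle on day 5, 7 were higher and 10 lower, with a median of -0.12 against -0.01 over all genes, and 3 had an unadjusted p under 0.05 against 16.5% of all genes. Ldha, which makes lactate from pyruvate, stood at a mean of 292 against 459 CPM (-0.66 ± 0.23, adjusted p = 0.197), and Acly, which splits exported citrate, at 82.1 against 99.5 CPM (-0.28 ± 0.11, adjusted p = 0.234). Gpd1, the cytosolic enzyme of the glycerol phosphate shuttle, stood at 2.72 against 3.93 CPM (-0.54 ± 0.82, adjusted p = 0.77). In the averaged EPAT effect on day 5, 16 of the 17 were lower, with a median of -0.15 against -0.02 over all genes, and 1 had an unadjusted p under 0.05 against 4.15% of all genes. The share of 16.5% also stands beside the day-5 counts of the combination in the lists that follow.

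The tricarboxylic acid cycle, which shares malate and oxaloacetate with the shuttle, had 22 of 22 listed genes measured. In the combination against vehicle on day 5, 3 were higher and 19 lower, the median was -0.23, and 7 had an unadjusted p under 0.05, but edgeR called none. Dlat, a subunit of pyruvate dehydrogenase, stood at 34.4 against 48.4 CPM (-0.49 ± 0.13, adjusted p = 0.171) and was the only one that DESeq2 called. Sdhc, a subunit of succinate dehydrogenase, differed by -0.52 ± 0.23 (adjusted p = 0.275) and Idh2, the mitochondrial NADP-dependent isocitrate dehydrogenase, by -0.24 ± 0.19 (adjusted p = 0.517). On day 2, 20 of 22 were lower under the combination (median -0.16 against -0.02 over all genes), of which 2 had an unadjusted p under 0.05, against 10.2% of all genes, and edgeR, DESeq2 and limma-voom called none.

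Genes that supply or use glutamate and aspartate numbered 29, of which 25 were measured. In the combination against vehicle on day 5, 6 were higher and 19 lower, with a median of -0.37, and 8 had an unadjusted p under 0.05, without a call by any of the 4 tools. Between the days, where 2.2% of all genes were called, edgeR called 3, all lower on day 5, as did DESeq2 and limma-voom; limma-trend called Adsl and Aspa but not Cad. Each of the 3 uses or breaks down aspartate or its derivatives. Adsl, an enzyme of purine synthesis, fell by 0.28 ± 0.07 on the log2 scale (20.9 against 25.5 CPM, adjusted p = 0.0213). Cad, which starts pyrimidine synthesis from aspartate, fell by 0.26 ± 0.07 (37.1 against 44.3 CPM, adjusted p = 0.0373), and Aspa, which cleaves N-acetylaspartate, by 0.58 ± 0.16 (24 against 35.4 CPM, adjusted p = 0.0402). Tissue content also differed between the days. All 8 proliferation genes (median -0.27), all 9 adipocyte genes (median -1.78) and all 5 lung genes were lower on day 5. All 15 skeletal muscle, 8 T cell, 7 fibroblast and 6 endothelial genes were higher. Their part in the fall of Adsl, Cad and Aspa was not tested.

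Of 39 listed genes of the amino acid response, to which Asns belongs, 37 were measured and edgeR called none in any comparison described here. On day 5, 12 were higher and 25 lower in the combination than in vehicle (median -0.14), and 9 had an unadjusted p under 0.05. Ddit3, a transcription factor of the stress response, went against the list at 69.8 against 41.9 CPM (0.74 ± 0.21, adjusted p = 0.171), while Gpt2, an alanine aminotransferase, differed by -0.45 ± 0.19 (adjusted p = 0.261) and the glutamine carrier Slc1a5 by -0.27 ± 0.15 (adjusted p = 0.364). On day 2, 29 were higher and 8 lower under the combination, with a median of 0.10 against -0.02 over all genes, and 7 of the 37 had an unadjusted p under 0.05 against 10.2% of all genes. There edgeR called 0, DESeq2 2 (Atf3 and Ddit3, among 84 genes in all) and limma-voom the same 2 (among 567).

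The list of cyclic AMP and CREB targets held 18 genes, all measured. In the combination against vehicle on day 5, 6 were higher and 12 lower, the median was -0.42, and 7 had an unadjusted p under 0.05. The immediate early genes Fos (62.8 against 27.8 CPM, 1.17 ± 0.33, adjusted p = 0.171) and Egr1 (159 against 97.7 CPM, 0.70 ± 0.25, adjusted p = 0.197) stood higher, and the clock gene Per2 lower (-0.81 ± 0.31, adjusted p = 0.225); edgeR called none and DESeq2 called Fos. Under EPAT alone on day 5, 12 of the 18 were higher, with a median of 0.26 against -0.01 over all genes. There edgeR called none (2 at an unadjusted p under 0.05, against 1.7% of all genes), and DESeq2 and limma-voom each called Egr1, higher, among 3 genes in all. Under EPAT alone on day 2 the list went the other way, with 4 higher and 14 lower and a median of -0.17. The averaged EPAT effect on day 5, which includes the combination libraries, had 5 higher and 13 lower (median -0.16). In it 6 had an unadjusted p under 0.05, against 4.15% of all genes, and edgeR called none.

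Of 16 glucocorticoid-induced genes 15 were measured. On day 5, 12 of them were lower in the combination than in vehicle, with a median of -0.26, and 4 had an unadjusted p under 0.05. The only one that edgeR called was Fkbp5, a chaperone of steroid receptors, at 25.1 against 57.0 CPM (-1.18 ± 0.21, adjusted p = 0.0148). DESeq2 called 2 of the list lower, Fkbp5 and Klf9, among 83 genes in all. By limma-trend Fkbp5 alone was called, among 6 genes, and by limma-voom 0 of the list, among 4. Fkbp5 is also 1 of the 4 genes of the contrast that chose Got1, so its direction there is no separate evidence. On day 2 the list went the other way, with 12 of 15 higher under the combination and a median of 0.19. None of them was called by edgeR (3 at an unadjusted p under 0.05, against 10.2% of all genes). DESeq2 and limma-voom called 2, Mt1 and Mt2, among 84 and 567 genes in all.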

How the data were processed

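RNA of 39 tumours was sequenced from 3′ tag libraries made from 500 ng of total RNA, per the labels' protocols. The authors deposited raw counts for 39179 Ensembl genes and log2 CPM values for 16095 of them; per the submitters' processing notes they used bcl2fastq, STAR, featureCounts and limma with the builds mm10 and GRCm38. Their versions, annotation and strand setting are not given in these sources. The extraction text names day 4, and the groups follow each sample's own time point, 2 or 5 days. Positions follow GENCODE on GRCm38.

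The counts were fitted with edgeR 4.0.16 (R 4.3.3): filterByExpr (minimum count 10, minimum total 15), TMM scaling, and a robust quasi-likelihood model of all 39 libraries with 1 mean per group and 31 residual degrees of freedom. Adjusted p-values are 2-sided and Benjamini-Hochberg adjusted over the 15070 genes, with 0.05 as threshold; the SE was derived from the fold change and its F statistic, and intervals are 95% intervals of the log2 fold change. CPM values cover sampling of tags only through the spread between libraries. The muscle relation used 100000 permutations. Counts were simulated for 1 of the 21 comparisons, the combination against vehicle on day 5. All genes were given the same biological coefficient of variation, 0.323, so the result does not describe the members' own spread. On the 14747 genes kept, the test recovered 42% of 2-fold and 100% of 4-fold changes, with 8 false among 150 calls. Replicate numbers are those of the titles. The titles also hold a series number that mostly follows treatment and day. Replicate 3 of anti-PD-1 on day 5 and replicate 5 of EPAT on either day carry the series number of the other day. They were grouped by their time point labels.

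The members and the gene lists were chosen with earlier results of these data known. Named genes were the 8 members, the 5 most and 2 least like Got1 and the 5 most like Asns by Pearson's r, and of each list the genes called in any comparison, or otherwise the 3 with the smallest p in the averaged EPAT effect on day 5. Alternatives were DESeq2, limma-trend on the deposited log2 values, limma-voom with quality weights, RLE size factors, the table without Gm42418, no filter, the compared libraries alone, a replicate block, muscle score or lung transcripts as covariates, and each library left out. The Gm42418 class as a covariate was added after seeing the data.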

Additional observations from a re-analysis of the deposited data

Results flagged for a closer look

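In 5 of 64 sets of values, a member in a group, 1 library stood far from the others by Dixon's criterion, which chance gives in about 1 of 20 sets. Got1 stood at 63.7 CPM in replicate 1 of EPAT on day 2, below 76.4 to 81.1 CPM in the other 4. Mdh1 stood at 109 CPM in replicate 4 of anti-PD-1 on day 2, above 61.5 to 66.3 CPM in the other 3, which all had over 5% Gm42418. In vehicle on day 5, Mdh1 stood at 58.3 CPM in replicate 1, below 86.4 to 91.3 CPM. Slc25a13 stood at 11.2 CPM in replicate 2 of EPAT on day 2, above 4.41 to 6.35 CPM, and this library had the highest muscle score of its group, 7.38. Asns stood at 44.4 CPM in replicate 2 of the combination on day 5, above 20.8 to 26.6 CPM; the same library had the highest Got1 of its group, 73.8 CPM.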

How the results depend on the processing

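The Got1 difference between the combination and vehicle on day 5, -0.78 on the log2 scale, kept its direction in every refit. That contrast chose the gene, so the calls below say how the choice depends on the processing and support nothing. The call was kept under DESeq2, limma-trend, limma-voom, RLE size factors, the table without Gm42418, either covariate, and the Gm42418 class as a covariate, which was added after seeing the data. The call was lost, so that 0 members were called, with no filter on low counts (-0.782) and with the compared libraries alone (-0.766). When single libraries were left out it ran from -0.94 to -0.633, and 0 to 1 members were called. Between the combination and anti-PD-1 on day 5, DESeq2 and limma-voom called 1 member, Got1, and leaving out single libraries gave 0 to 1; limma-voom also called 1, Got1, in the averaged EPAT effect on day 5. Both comparisons contain the combination libraries that chose Got1 and are no separate evidence. Libraries that share a replicate number deviated from their group means with a mean correlation of 0.004 (133 pairs, 48 of them over 0.1), against -0.001 for other numbers (532 pairs). Between vehicle and combination on day 5 it was -0.16 to 0.239. The labels do not say what the numbers mark, and these values do not decide whether they pair samples. With the number as a replicate block the difference was -0.802 and the call was kept, and the block changed no other call of a member. Of the 5 genes most like Got1, 0 remained by Spearman's rho, 2 after subtracting group means and 2 without replicate 1 of the combination on day 5, and of those most like Asns 2, 2 and 2. The r with the muscle score changed sign for Got2 (-0.0884 to 0.0357 without the 2 farthest libraries and 0.0899 by Spearman), Mdh2 (0.0378 to -0.0312) and Slc25a11 (0.0182 to -0.0683), the last 2 after subtracting group means, which also brought Slc25a13 from 0.446 to 0.321 and under the threshold. Of 1837 refits of the other 167 fold changes, 3 gained a call and 136 changed sign without one, and of 2574 that left out a library 1 gained a call and 226 changed sign. Except where a refit holds fewer libraries, the cause was not tested. Slc25a13 had the fewest counts, 26 to 172 per library, and a median variation within groups of 30.1%, close to the 29.2% of Asns, which had at least 120 counts in every library. For the combination against vehicle on day 5, the simulation with 1 spread for all genes recovered 42% of 2-fold changes.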

Other observations

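Replicate 5 of anti-PD-1 on day 5 had the highest muscle score of the 39 libraries, 9.63. It also had the highest Slc25a12 (52.4 CPM) and the lowest Asns (10.4 CPM) of all libraries, and Slc25a13 at 10.1 CPM, the highest of its group. Replicate 2 of the combination on day 2 had the highest Asns, 76.0 CPM, and the lowest Slc25a12, 27.2 CPM. The tag ratio of Slc25a12 to Slc25a13 had a median of 9.04 in vehicle on day 2 (6.16 to 10.4) and of 6.44 over all libraries. These libraries were picked after their values were seen.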
